A study of Apis mellifera with 2 samples.

Results

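Vg, Vhdl and Tsf1 are 3 honey bee genes for proteins that carry lipid or iron in the hemolymph, the blood-like fluid of the insect body cavity. They were chosen by their RefSeq symbols as 3 of the 9935 genes measured, and each has 1 of the 23471 coding sequences. Vg encodes vitellogenin, the lipid-carrying yolk precursor. Vhdl encodes the very high density lipoprotein, another lipid carrier. Tsf1 encodes a transferrin, an iron-binding protein. RNA came from hemocytes, the circulating cells, of Apis mellifera carnica at 2 stages, with 1 library per stage. The adult library was made from workers under 1 day old that had emerged from closed brood in a 34 °C chamber and were taken at intervals of 24 h. The series' design text calls these bees nurse bees. The larval library was made from 8-day-old worker larvae of the fifth instar, taken fresh from the brood frame. Each RNA preparation used the cell pellet of 320 µL of hemolymph after the plasma had been thrown away, and the number of insects pooled was not given in the sources used here. No treatment is named by the labels at either stage.

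The fat body, the insect counterpart of liver and adipose tissue, is known as the main source of these hemolymph proteins. In worker bees vitellogenin also feeds the production of brood food by nurses, and its titre is known to be tied to juvenile hormone, which it opposes in adult workers. Insect transferrin moves iron between tissues in Drosophila and is also counted among proteins that withhold iron from microbes. Hemocytes share the body cavity with the fat body, and the libraries give the level of these transcripts in the cell pellet at each stage.

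Summed over genes, there were 16880780 counts in the adult library and 17657461 in the larval one, and 9383 and 9245 genes had at least 1 count. PPO, the prophenoloxidase of hemocytes and the only one of 9 hemocyte marker symbols that the gene table held, ranked 11 by authors' TPM among adult and 9 among larval genes, at 5902 and 8011 TPM. The labelled cell type was thus represented by 1 marker at a high level in both libraries. With 1 library per stage there was no replicate, no p-value and no standard error. Every interval below is an exact 95% interval that covers counting error only, and every difference is one between these 2 libraries. Fewer cells of a type and less RNA per cell cannot be told apart in bulk RNA.

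The 3 genes went different ways. Vg was found nearly exclusively in the adult library, Vhdl nearly exclusively in the larval library, and Tsf1 in both, at a higher level in the larval one. Each of their estimated counts was a whole number in both libraries at a tolerance of 0.001. Together they took 0.0180% of all counts in the adult library (0.0174 to 0.0187) and 0.0234% of those in the larval one (0.0227 to 0.0242).

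Vg, with the longest coding sequence of the 3 (5313 bases), had 2280 counts in the adult library and 5 in the larval library. In CPM after TMM scaling (scaled CPM), where counts are divided by a library size corrected for the bulk of genes, its level was 120 in the adult library (115 to 125) and 0.320 in the larval library (0.104 to 0.746). The adult level lay far above the larval one, and the larval level rested on 5 counts, just above the 3 counts set as the floor for an observed 0. The plain ratio of scaled CPM was 374 (160 to 1154). The log2 fold of adult over larva, with a prior of 0.5 counts, was 8.41 (7.32 to 10.17). The interval of each log2 fold was computed without the prior. The larval counts were 0.219% of the adult counts.

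Vhdl, with 4524 coding bases, had 25 counts in the adult library and 2746 in the larval library. Its scaled CPM was 1.31 in the adult library (0.849 to 1.94) and 176 in the larval library (169 to 182). The order of the libraries was thus the reverse of that of Vg, with the adult counts at 0.910% of the larval counts. The plain ratio of larva over adult was 134 (90.4 to 207) and the log2 fold, adult over larva, was -7.04 (-7.69 to -6.50).

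Tsf1, the shortest with 2139 coding bases, had 741 counts in the adult library and 1386 in the larval library. Its scaled CPM was 38.9 in the adult library (36.1 to 41.8) and 88.6 in the larval library (84.0 to 93.4). The transferrin transcript was therefore well above the counting floor at both stages. The plain ratio of larva over adult was 2.28 (2.08 to 2.49), a log2 fold of -1.19 (-1.32 to -1.06).

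**Figure D1:**
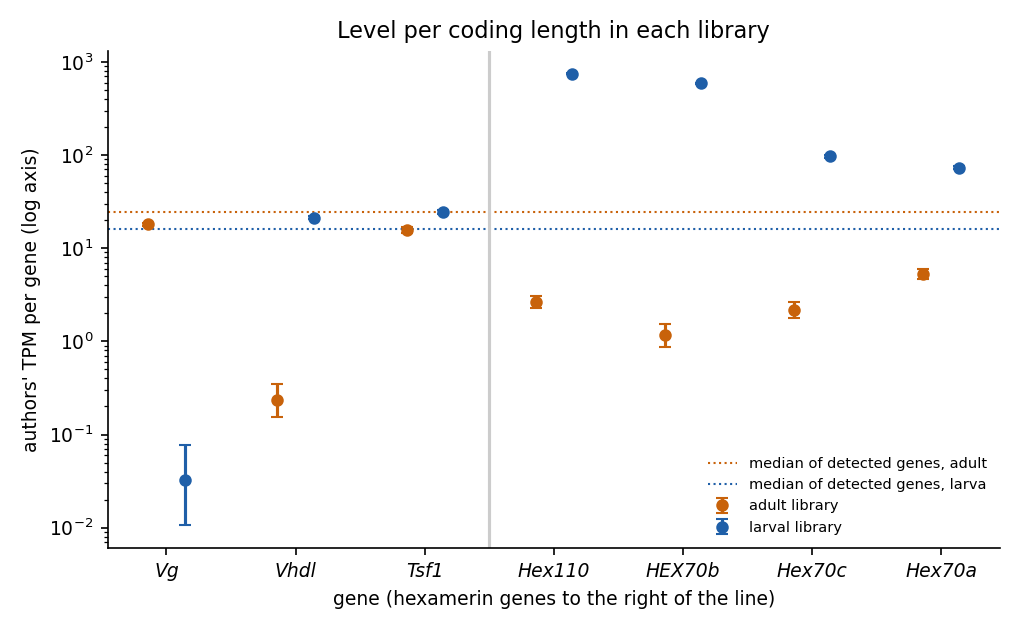
Authors' TPM per gene on a log axis for Vg, Vhdl, Tsf1 and the 4 hexamerin genes in the adult and the larval library, with bars for exact 95% counting intervals and dotted lines for the median of genes with at least 1 count. Vg stands at 18.1 TPM in the adult library and 0.0327 in the larval library, while Vhdl stands at 0.235 and 21.3 TPM.

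A difference was called large by a rule of size, met when the fold and the interval bound nearest to 1 were both at least 4-fold and the higher library had at least 10 scaled CPM. Vg met it as higher in the adult library, as did 3.14% of the 8798 genes that had at least 10 counts when the libraries were added (276 genes). Vhdl met it as higher in the larval library, as did 2.72% (239 genes). Tsf1 did not meet it. Its interval excluded equal levels, but at this depth the interval of 40.9% of the compared genes lay on the larval side and that of 41.8% on the adult side, so for Tsf1 a difference beyond counting error was common among genes.

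Among the 276 genes of the adult side, 8 had a log2 fold above that of Vg. Of these, 6 had 0 larval counts, so that their fitted folds depend on the prior, and 3 carried a symbol: Eth, TyHyd and Apd-2. On the larval side 11 of 239 genes lay farther out than Vhdl, and the 3 of them with a symbol were HEX70b, Hex110 and Br-c. Tsf1 was passed by 861 of the 6500 genes with at least 10 scaled CPM in the larval library, or 13.2%.

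**Figure D2:**
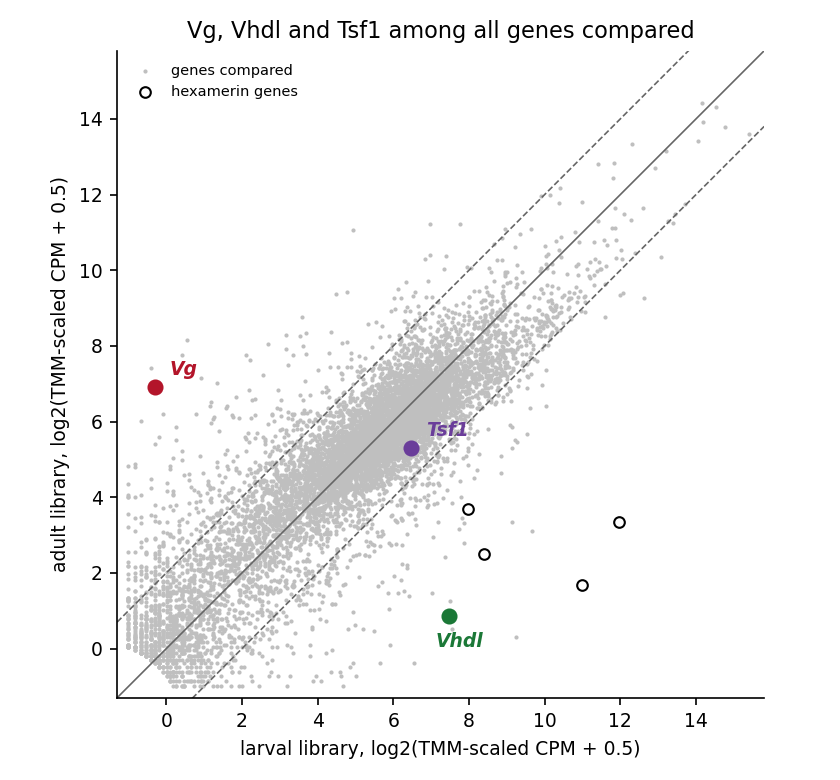
Each of the 8798 compared genes by its larval (horizontal) and adult (vertical) level as log2(TMM-scaled CPM + 0.5), with the line of equal levels and dashed lines at 4-fold. Vg lies far above the upper dashed line, Vhdl and the 4 hexamerin genes (open circles) far below the lower one, and Tsf1 between the dashed lines at a log2 fold of -1.19.

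Few genes of like coding length or like abundance lay as far out as Vg or Vhdl. Of 409 genes with a coding length within 20% of that of Vg, none had a log2 fold as high, and their median was 0.35. Of 577 genes of the length of Vhdl none had a fold as far to the larval side, and their median was 0.30, on the adult side. Among genes with a mean scaled CPM within 2-fold, 2 of 3629 went as far as Vg and 2 of 3303 as far as Vhdl. Tsf1 lay within the spread of such genes, with 192 of 1563 by length and 320 of 3621 by abundance at least as far to the larval side.

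Levels of different genes can be compared on the authors' TPM, which is per coding length. In the adult library Vg stood at 18.1 TPM (17.4 to 18.9), Tsf1 at 15.9 (14.7 to 17.0) and Vhdl at 0.235 (0.152 to 0.347). The order Vg, Tsf1, Vhdl held beyond counting error, although Vg exceeded Tsf1 only 1.14-fold. In the larval library Tsf1 stood at 24.6 TPM (23.3 to 25.9), Vhdl at 21.3 (20.5 to 22.1) and Vg at 0.0327 (0.0106 to 0.0763). Here Tsf1 exceeded Vhdl 1.15-fold and Vg 751-fold. Of the TPM of the 3 genes together, Vg made up 53.0% in the adult library and 0.0713% in the larval library. The share of Vhdl was 0.688% and 46.4%, and that of Tsf1 46.4% and 53.5%. Tsf1 was thus close to the higher of the lipoproteins at either stage, while the lipoprotein transcript found beside it was Vg in the adult and Vhdl in the larval library.

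None of the 3 transcripts was abundant for these libraries. Genes with at least 1 count had a median TPM of 24.5 in the adult library and 16.2 in the larval library. At its higher stage, Vg reached 0.739 times that median, Vhdl 1.32 times and Tsf1 1.52 times. By TPM, Vg ranked 5307 of 9935 genes in the adult library and 9101 in the larval library. Vhdl ranked 8726 and 4072, and Tsf1 5592 and 3733, adult first. By counts, which are not corrected for length, the long Vg ranked 1486 in the adult library and Vhdl 1022 in the larval library. PPO exceeded Vg 326-fold in TPM in the adult library, and it exceeded Vhdl 376-fold and Tsf1 326-fold in the larval library. Among single coding sequences, Vg ranked 5922 by TPM in the adult library, and in the larval library Vhdl ranked 4294 and Tsf1 3879.

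**Figure D3:**
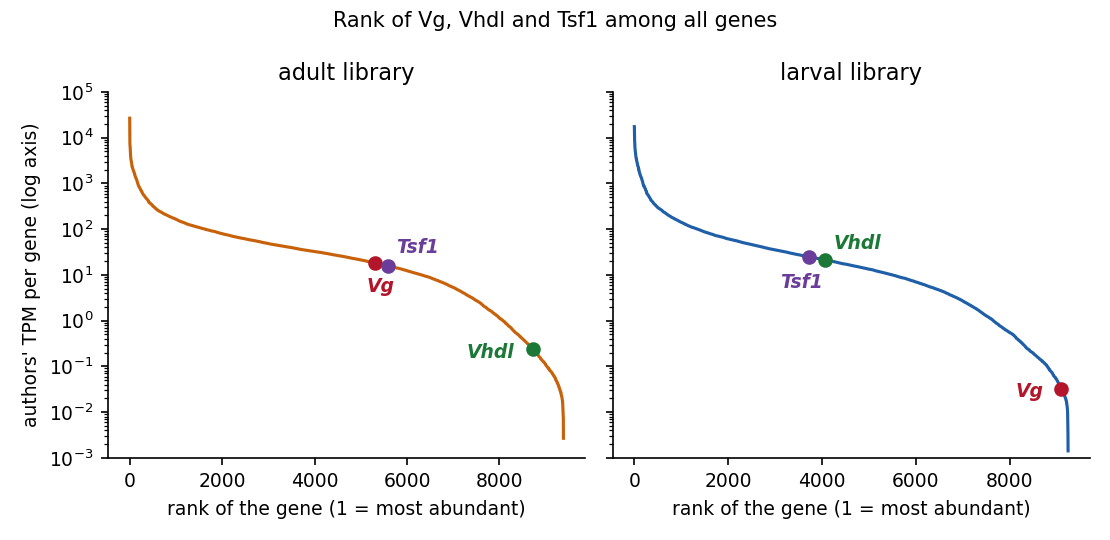
Authors' TPM per gene on a log axis against the rank of the gene, with genes listed at 0 left out, for the adult library (left) and the larval library (right). Vg and Tsf1 sit near the middle of the adult curve at ranks 5307 and 5592 and Vhdl at 8726, while in the larval library Tsf1 and Vhdl sit at 3733 and 4072 and Vg at 9101.

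The hexamerins, storage proteins that fat body cells secrete in the larva and take back before the pupal stage, share their known source with Vhdl. All 4 of 4 (Hex110, HEX70b, Hex70c and Hex70a) met the size rule on the larval side, as did 2.72% of all compared genes, and their median log2 fold was -7.35 against 0.02 over all compared genes. Vhdl, at -7.04, lay within their range of -9.53 to -4.34. Its level did not: in the larval library Hex110 stood at 748 TPM and HEX70b at 592 TPM, 35.1 and 27.8 times Vhdl, and Hex70a, the lowest of the 4, at 73.3 TPM, 3.44 times Vhdl. In the adult library Vhdl was below each hexamerin, of which HEX70b was the lowest at 1.17 TPM (0.871 to 1.53). Vg went the other way, and its 18.1 TPM in the adult library exceeded the 5.31 TPM of Hex70a, the highest hexamerin there, while in the larval library it was below all 4.

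As fat body markers the hexamerins took 0.00338% of all counts in the adult library (0.00311 to 0.00367) and 0.587% in the larval library (0.583 to 0.590), and none of the 4 was at 0 in either library. Vhdl and Tsf1 were thus higher in the library with the higher share of hexamerin counts, and Vg in the other. Of the 5 fat body marker symbols, apoLp was not in the gene table. The part that fat body RNA had in the levels of the 3 genes was not tested. Of the oenocyte markers, 2 of 3 were in the table, and held 0.0101% of adult and 0.000861% of larval counts. Cyp4g11, whose cytochrome P450 acts in the making of cuticle hydrocarbons, moved with Vg, at 1612 against 27 counts, whereas FAR1, a fatty acyl reductase, had 95 and 125. The joint list of 7 fat body and oenocyte genes adds the adipokinetic hormone receptor Akhr to these. Akhr was higher in the adult library, at 149 against 40 counts, a log2 fold of 1.60. In this list the size rule was met on the larval side by the same 4 hexamerins and on the adult side by Cyp4g11. The shares of all compared genes were 2.72% and 3.14%. The median log2 fold of -4.34 was the value of Hex70a, since 4 of the 7 genes were hexamerins.

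Marker lists of other tissues held small shares of counts, as did the genes reported on here. Vg held 0.0135% of adult counts, and Vhdl held 0.0156% and Tsf1 0.00785% of larval counts. In the adult library each list below held less than Vg. In the larval library the ovary share was near that of Vhdl, and the gland share lay between those of Tsf1 and Vhdl. The larval muscle and cuticle shares were below those of both genes. The muscle list, of which 5 of 7 symbols were in the table, all troponins, held 0.00288% of adult and 0.00370% of larval counts, and the ovary list, with vas and nanos found of 4 symbols, 0.0119% and 0.0166%. Of 4 hypopharyngeal gland genes, the royal jelly protein gene Mrjp3 had 0 adult and 136 larval counts, and the 4 held 0.00554% and 0.0114% of counts, most of them from Hbg3. The cuticle genes held 0.00356% and 0.000232%, with Apd-1, Apd-2, Apd-3 and a separate gene spelled apd-3 at 0 in the larval library, the last also in the adult library. CPR14, also a cuticle gene, had 53 adult and 41 larval counts, and Mrjp1 and Mrjp2 had 2 in each library. The share of the cuticle list was higher in the adult library, as was Vg. Mrjp3 and the share of the gland list, most of it from Hbg3, were higher in the larval library, as were Vhdl and Tsf1. A share of marker counts does not measure how much of a tissue was present. A shared side was common, since intervals of 41.8% and 40.9% of all compared genes lay on the adult and larval sides. The part of these tissues in the results was not tested.

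Other genes of lipid and iron transport could be matched only in part, since most genes in the table carry a locus number. For lipid transport, 26 symbols of lipid carriers, their receptors and lipid droplet proteins were sought, and the only one found was Fabp, carried by 2 genes, for fatty acid binding proteins, which carry lipid inside cells. The more abundant Fabp gene had 2492 adult and 6501 larval counts, a log2 fold of -1.67. The other Fabp gene had 117 and 699 counts and met the size rule on the larval side, as did 2.72% of all compared genes, at a log2 fold of -2.86. At 686 and 1633 TPM the first stood far above the hemolymph carriers in both libraries. Both had the direction of Vhdl and Tsf1, not that of Vg, and the interval of 40.9% of all compared genes lay on that larval side. For iron handling, 1 of 20 symbols was found. This was Ho, the symbol used for heme oxygenase, which releases iron from heme, with 1005 adult and 532 larval counts. Its log2 fold of 0.63 (plain ratio 1.55, interval 1.40 to 1.73) had the opposite sign to that of Tsf1.

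Among genes of hormone and nutrient signalling, which are known to act on vitellogenin or on metamorphosis, 13 of the 14 matched genes could be compared. Their median log2 fold was -0.06, near the 0.02 of all compared genes, and 1 of 13 met the size rule on the adult side and 2 of 13 on the larval side, beside 3.14% and 2.72% of all compared genes. On the adult side this was Mblk-1, an ecdysone-linked transcription factor, with 1263 adult and 29 larval counts. The larval ones were the ecdysone-responsive transcription factors Br-c, with 5 and 1466 counts, and E74, with 190 and 1172. For, a cGMP-dependent protein kinase, was the most abundant by counts, with 16084 and 6294 (log2 fold 1.07). The lists of symbols were set with earlier results of these libraries known, so their counts are a description.

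**Figure D4:**
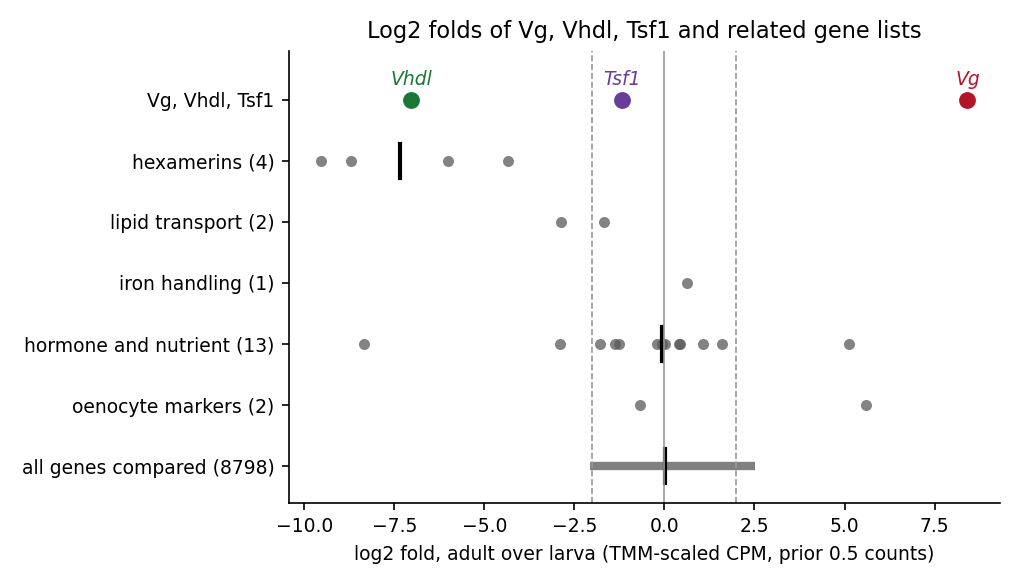
Log2 fold of adult over larva for Vg, Vhdl and Tsf1 and for each compared gene of the related lists (number of genes in brackets), with black bars for medians of lists of 3 or more, dashed lines at 4-fold and a grey bar from the 5th to the 95th percentile of all 8798 genes (-2.05 to 2.52). Vg at 8.41 lies beyond every plotted list gene on the adult side, and Vhdl at -7.04 lies among the hexamerin genes. Apd-2 of the cuticle list, which is not plotted, had a higher log2 fold of 9.29, with 0 larval counts.

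By level in the 2 libraries, the genes with a symbol that were nearest to Vg were Eth, Cyp4g11 and Mblk-1, at Euclidean distances of 0.972, 1.52 and 1.74 over log2(scaled CPM + 0.5). Only 2 other genes of any name were nearer to Vg than Eth, which had 1224 adult and 2 larval counts. Nearest to Vhdl were Br-c at 1.54, Hex70c at 1.88 and Oa1, an octopamine receptor, at 2.67, the last with 18 adult and 430 larval counts. Tsf1 had far closer company, with Snf at 0.223, RCC1 at 0.252 and Stip at 0.316. For Tsf1, 52 genes of any name were nearer than Snf. A likeness over 2 libraries says only that the levels were alike.

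On the chromosome, neighbours were read from the RefSeq gene order of assembly Amel_HAv3.1. The gene after Vg, LOC408817, was also higher in the adult library, with 1308 adult and 30 larval counts, 35.2-fold (25.0 to 53.3), and met the size rule. The gene before Vg, LOC107964258, overlaps its gene model by 160 bases and had 0 adult and 2 larval counts, so its own coding sequence drew almost no reads. The nearest coding gene before Vhdl, LOC408412, had 2124 adult and 8435 larval counts, was 4.84-fold higher at the larval stage (4.61 to 5.07) and met the size rule too. The next coding gene after Vhdl, LOC726205, was 2.95-fold higher on the larval side (2.52 to 3.47) and did not meet it. A tRNA gene before Vhdl and the microRNA gene Mir6001, which lies within the Vhdl gene model, have no coding sequence and were not measured. Both coding neighbours of Tsf1 were scarce, LOC726250 at 44 adult and 10 larval counts and LOC113218519, which overlaps Tsf1 by 2 bases, at 9 and 3. Vg and Vhdl each had at least 1 coding neighbour past the size rule in their own direction. Among all compared genes, 3.14% met the rule with the adult level higher and 2.72% with the larval level higher. Tsf1 had no neighbour past the rule. At their higher stage LOC726250 had 2.31 and LOC113218519 had 0.472 scaled CPM, below the 10 scaled CPM required, so neither could meet it. A link between gene position and these differences was not tested.

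The scaling of the libraries shifted the 3 log2 folds together. The median log2 fold of all 8798 genes was 0.02 with TMM, 0.37 with plain totals and 0.55 by the deposited TPM. Relative to that median, Vg lay between 8.04 and 8.56, Vhdl between -7.08 and -6.97 and Tsf1 between -1.21 and -1.18 under TMM and all 7 alternatives. Subtracting the median cancels any factor common to a library, so these ranges reflect only the priors, the single coding sequence and the authors' TPM. The reported fold of Tsf1 itself was -0.84 with plain totals and -0.63 with TPM, a TPM ratio of larva over adult of 1.55. Its direction was the same under the 7 alternatives, and those of Vg and Vhdl were too. Adult-side genes made up 53.6% of all genes past the size rule with TMM, 72.1% with plain totals and 79.8% with TPM.

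**Figure D5:**
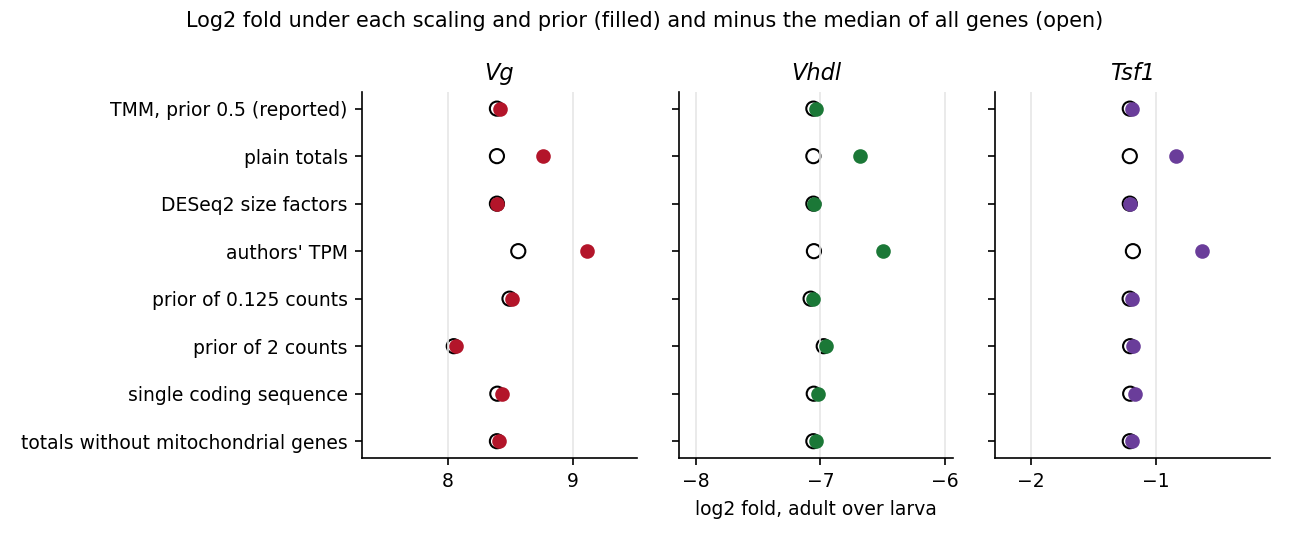
Log2 fold of adult over larva for Vg, Vhdl and Tsf1 under TMM with a prior of 0.5 counts and under 7 alternatives (filled points), and the same after subtracting the median of all genes compared (open circles). The filled points of all 3 genes move to the right with plain totals and the authors' TPM, and the open circles of Tsf1 stay between -1.21 and -1.18.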

How the data were processed

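Polyadenylated RNA of 2 hemocyte libraries was read in pairs of 150 bases, per the labels' protocols. The authors deposited estimated counts and TPM per RefSeq coding sequence, for which the submitters' processing notes name kallisto. The kallisto version, index and strand setting were not given in the sources used here. Length and effective length, in bases, stand beside them per the file headers. Estimated counts were summed per gene through protein accessions (23471 of 23471 matched, assembly Amel_HAv3.1, 398 of 9935 genes with a symbol) and rounded. Library sizes were scaled with TMM over genes with at least 10 counts (edgeR 4.0.16, R 4.3.3; factors 1.13 adult, 0.886 larva). DESeq2 1.42.0 size factors were an alternative. Intervals are Clopper-Pearson on the split of counts for folds, without the prior, exact Poisson for levels and exact binomial for shares. PCR reads are not independent molecules, so intervals may be too narrow. The floor of 3 counts is 0.157 scaled CPM in the adult library and 0.192 in the larval library. Folds and calls were tested on data simulated with counting error only, so that test does not cover variation between insects or libraries. Named genes are the 3 genes, the hexamerin, lipid and iron lists, genes past the size rule and the most abundant one of the hormone and marker lists, the 3 nearest genes by level and the chromosome neighbours. Genes with a symbol farther out than Vg or Vhdl are named too. FAR1, Akhr, nanos, Mrjp1, Mrjp2, Mrjp3, Apd-1, Apd-3, apd-3 and CPR14 are marker or list genes named outside this rule. The genes and lists were chosen with earlier results of these data known. Symbols were matched in any letter case. The marker symbol nos was read as nanos, after NOS, another gene, had matched it. Python 3.11.15, numpy 2.4.6, scipy 1.17.1, pandas 2.3.3 and matplotlib 3.10.9 were used.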

Additional observations from a re-analysis of the deposited data

How the results depend on the processing

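No paired analysis was possible because each stage has 1 library, and no replicate could be left out. Of 100 values recomputed under the alternatives, 75 stayed within the counting interval or within 1.5 times the reported count, and 25 moved. Only the folds of Vg and Vhdl, which met the size rule, could be labelled as reversed, and neither changed sign. The fold of Tsf1 also kept its sign under the 7 alternatives. The hormone and nutrient median did change sign. It was -0.06 with TMM, 0.29 with plain totals and 0.15 with the single coding sequence that had the most counts for each gene. With plain totals, the log2 fold of Tsf1 was -0.84, and the medians were -7.00 for hexamerins, -1.91 for lipid transport, 0.98 for iron handling and -3.99 for fat body and oenocyte genes. With the authors' TPM these were -0.63, -6.80, -1.84, 1.14 and -3.79, and the hormone and nutrient median became 0.57, against -0.06 with TMM. TPM gave 560 adult-side and 142 larval-side genes past the size rule, without an interval and with a floor of 10 TPM in place of 10 scaled CPM. At 2-fold the counts were 879 and 931, and at 8-fold 120 and 86, by construction. With the single coding sequence that had the most counts for each gene, the hexamerin median was -7.75, the lipid transport median -2.62, and ranks by TPM were 4693 for Vg and 4985 for Tsf1 in the adult library and 3562 for Vhdl and 3252 for Tsf1 in the larval library. Among genes with at least 10 counts, Vg ranked 8691 in the larval and Vhdl 8544 in the adult library, since fewer genes were ranked. Where not stated, the cause was not tested. The 5 larval counts of Vg and the 25 adult counts of Vhdl limit how exactly their folds are known.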
